A study of Homo sapiens with 18 samples.

Results

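HNF4A, HNF4G, FOXA1, FOXA2, FOXA3, ONECUT1, CEBPA, NR1H4 and PROX1 are 9 of the 23106 genes with counts in each of 18 RNA-seq samples. They were chosen by name as liver-enriched transcription factors, and all 9 were present in the files. PolyA+ RNA was sequenced from HKC-8 kidney proximal tubule cells, from RCC4 kidney cancer cells stably transfected with wild-type VHL, and from HepG2 hepatocellular cancer cells. Each line was examined in normoxia and in hypoxia, with 3 replicates per condition. By the labels, hypoxic HepG2 cells spent 16 h at 0.5% oxygen, and hypoxic RCC4 cells 24 h at 1% oxygen. Hypoxic HKC-8 cells were kept for 16 h, in 0.5% oxygen by their characteristics but 0.1% by their titles. The titles of the normoxic HKC-8 samples give 21% oxygen. The published description of the RNA-seq gives 0.5% oxygen and 16 h for each line, so the exposure of RCC4 cells is uncertain. RCC4 cells have lost their own VHL, the protein that marks HIF-α subunits for destruction in normoxia, and the transfected gene restores it. Liver was represented by a single cultured line, and kidney by a tubule line and a cancer line. A difference between lines is therefore not a difference between kidney and liver.

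Hepatocyte identity is set by a small network of transcription factors that bind the promoters and enhancers of liver genes together and also maintain each other's expression. The FOXA proteins are pioneer factors that open chromatin, HNF4A and HNF4G are orphan nuclear receptors, ONECUT1 (HNF6) is a cut-homeodomain factor, CEBPA is a leucine-zipper factor of the differentiated hepatocyte, PROX1 is a homeodomain factor that often acts as a corepressor, and NR1H4 (FXR) is the nuclear receptor for bile acids. Some of them, HNF4A and FXR among them, are also known from the kidney tubule.

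HepG2 samples held 40915980 to 48355303 counts each, RCC4 samples 42045335 to 51794355 and HKC-8 samples 75441764 to 97984260, so depth differed with the line. No 2 replicates agreed within sampling noise, with a chi-square per degree of freedom of 4.57 or more for each pair. All 12 hypoxia-induced genes taken as controls, VEGFA, CA9 and NDRG1 among them, rose in HKC-8 and HepG2 cells, as did the 10 that could be tested in RCC4 cells. Of 8 hepatocyte markers, HepG2 cells expressed 8, with a summed level of 26640 to 29664 CPM (read counts scaled to library size and normalised by TMM) in normoxia and 33978 to 36876 in hypoxia. RCC4 cells expressed 1 of them, SERPINA1, with a sum of 9.17 to 11.4 CPM and ALB, APOA1 and TTR at 0. HKC-8 cells expressed none of the 8, with a sum of 0.253 to 0.514 CPM. Of 10 markers of kidney tubule and renal carcinoma, 7 were expressed in RCC4, 3 in HKC-8 and 4 in HepG2 cells. PAX8 and CDH16 were among the 3 in HKC-8 cells, while the proximal tubule genes AQP1, CUBN, LRP2 and SLC34A1 were not expressed there and LRP2 had no count in normoxia. Of 8 markers of other cells, THY1 was expressed in both kidney lines and PECAM1 in HepG2 cells.

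HepG2 cells expressed all 9 factors in both conditions, where expressed means at least 1 CPM in each of the 3 samples. RCC4 cells expressed 4 of the 9 in normoxia (HNF4G, FOXA2, CEBPA and NR1H4) and 3 in hypoxia, where FOXA2 was under 1 CPM in 1 sample. HKC-8 cells expressed only FOXA1, in both conditions. More than 3 counts in every sample of a condition, a lower bar, were found in HKC-8 cells also for ONECUT1, CEBPA and NR1H4, and in normoxic RCC4 cells also for PROX1. In bulk RNA, fewer cells with a transcript and less of it per cell cannot be told apart.

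**Figure D1:**
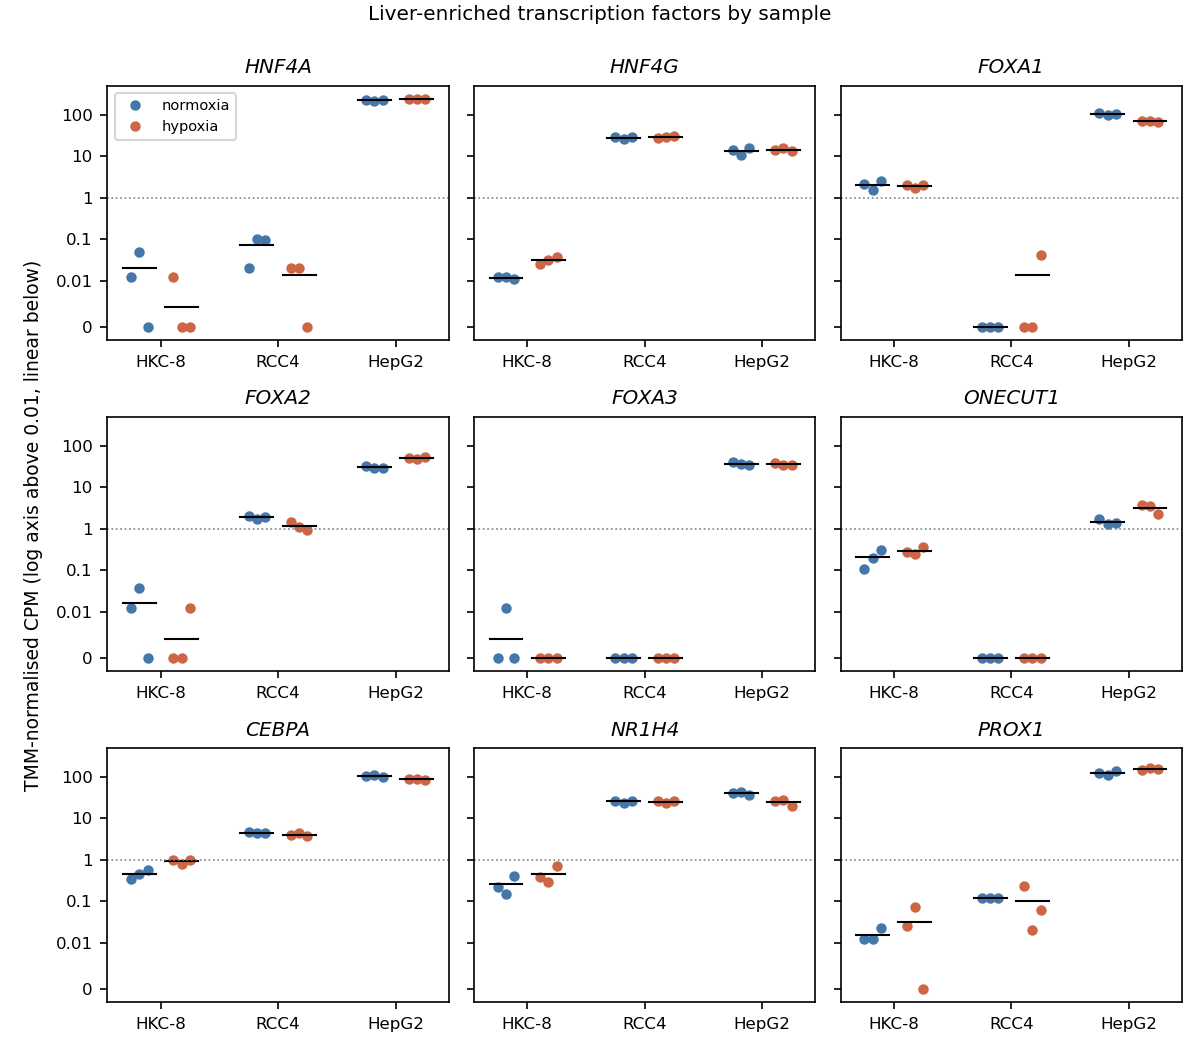
TMM-normalised CPM (y axis, logarithmic above 0.01 and linear below) of the 9 factors in each of the 18 samples, by cell line (x axis). Points are samples, normoxic in blue and hypoxic in orange, short black lines are the means of 3, and the dotted line marks 1 CPM. All HepG2 points lie above the dotted line, RCC4 points lie above it for HNF4G, CEBPA and NR1H4 in both conditions, and HKC-8 points for FOXA1.

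The normoxic samples were compared between lines with edgeR's quasi-likelihood test, adjusted over the 14806 genes tested. In HepG2 cells 9 of the 9 factors were higher than in HKC-8 cells, and 8 were higher and 1 (HNF4G) lower than in RCC4 cells. These counts carry little by themselves, because 83.0% of all genes tested were called in the first contrast (42.6% higher) and 83.3% in the second (45.3% higher, 38.1% lower), and because several members passed the low-count filter through HepG2 cells alone. Between the kidney lines 6 of the 9 had more than 3 counts in every sample of a line, and of these 4 were higher in RCC4 and 2 in HKC-8 cells, where 80.8% of all genes were called (39.4% and 41.4%). The other 3 were tested there only through their HepG2 counts, and that comparison is not used. ONECUT1, 1 of the 2 higher in HKC-8 cells, also passed the filter through its HepG2 counts alone, so its call carries no weight. HNF4G, FOXA2 and NR1H4 in HKC-8 cells, and FOXA1 in RCC4 cells, fell short of the filter in at least 1 sample. Of the 6, only CEBPA reached it in every sample of both kidney lines, so these counts carry little as well.

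HNF4A, a nuclear receptor required for much of hepatocyte gene expression, was found in HepG2 cells and hardly elsewhere. Its level in normoxic HepG2 cells was 233, 218 and 232 CPM (228 ± 8.42, mean ± SD, n = 3). The normoxic HKC-8 samples held 1, 4 and 0 counts of it and the normoxic RCC4 samples 1, 5 and 4. Every HepG2 sample lay far above every kidney sample.

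HNF4G, the close relative of HNF4A, had the reverse order of the 2 cancer lines. Normoxic RCC4 cells held 28.8, 26.7 and 28.7 CPM (28.0 ± 1.19, SD, n = 3) and normoxic HepG2 cells 14.03, 10.97 and 15.75 CPM (13.6 ± 2.42). All RCC4 samples lay above all HepG2 samples, and the level was 2.05-fold higher in RCC4 cells (log2 difference of HepG2 minus RCC4 -1.04 ± 0.12 (SE), edgeR adjusted p = 2.19e-06). Each normoxic HKC-8 sample held a single count, so that the ratio of RCC4 to HKC-8 cells was 2386 with a 95% counting interval of 816 to 11575, which covers counting error only. Per kilobase of transcript, HNF4A made up 93.8% ± 0.866 of the summed HNF4 level in normoxic HepG2 cells, while HNF4G made up 99.8% ± 0.147 of it in normoxic RCC4 cells.

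The 3 FOXA genes were divided among the lines. FOXA1 was at 109, 101 and 103 CPM (104 ± 4.30, SD, n = 3) in normoxic HepG2 cells, at 2.11, 1.53 and 2.57 CPM (2.07 ± 0.524) in HKC-8 cells and had no count in any normoxic RCC4 sample. HepG2 cells held 50.8-fold more than HKC-8 cells (log2 difference 5.67 ± 0.16, edgeR adjusted p = 8.92e-12) and at least 4990-fold more than RCC4 cells, taking 3 counts over the RCC4 group as the floor. By the same floor HKC-8 cells held at least 100-fold more FOXA1 than RCC4 cells. FOXA1 and ONECUT1 were the 2 factors higher in HKC-8 than in RCC4 cells.

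FOXA2 had the opposite distribution in the kidney lines. It was at 33.6, 29.1 and 29.3 CPM (30.6 ± 2.53, SD, n = 3) in normoxic HepG2 cells and at 2.02, 1.69 and 1.94 CPM (1.88 ± 0.171) in RCC4 cells, while the HKC-8 samples held 1, 3 and 0 counts. The level in HepG2 cells was 16.4-fold that in RCC4 cells (log2 difference 4.03 ± 0.16, edgeR adjusted p = 2.07e-11). In normoxia RCC4 cells thus expressed FOXA2 but not FOXA1, and HKC-8 cells FOXA1 but not FOXA2.

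FOXA3, which in the mouse liver is the last of the family to come on, was at 40.1, 35.7 and 35.3 CPM (37.1 ± 2.68, SD, n = 3) in normoxic HepG2 cells. None of the 6 RCC4 samples held a count of it, which allows up to 0.0209 CPM over the normoxic group, and the 6 HKC-8 samples held 1 count in all. HepG2 cells held at least 1776-fold more than RCC4 cells.

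ONECUT1, a factor of early liver and bile duct development, was the least abundant of the 9 in HepG2 cells, at 1.68, 1.28 and 1.38 CPM (1.45 ± 0.208, SD, n = 3) in normoxia. HKC-8 cells held 0.108, 0.197 and 0.308 CPM (0.204 ± 0.1002) and the RCC4 samples no count. Every HepG2 sample lay above every HKC-8 sample, with an edgeR estimate of 7.05-fold. No test of this normoxic difference is given, since ONECUT1 passed the low-count filter through HepG2 cells alone. By the floor of 3 counts, the level in HepG2 cells was at least 69.3-fold and in HKC-8 cells at least 9.94-fold that in RCC4 cells.

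CEBPA and NR1H4 had the same order in normoxia, with HepG2 cells highest and HKC-8 cells lowest, and no overlap between lines. CEBPA was at 107, 112 and 101 CPM (106 ± 5.66, SD, n = 3) in HepG2, at 4.66, 4.31 and 4.399 CPM (4.46 ± 0.183) in RCC4 and at 0.336, 0.456 and 0.561 CPM (0.451 ± 0.113) in HKC-8 cells. The step from HKC-8 to RCC4 cells was 9.87-fold (edgeR adjusted p = 6.50e-11) and that from RCC4 to HepG2 cells 24.0-fold (edgeR adjusted p = 9.86e-14). For CEBPA the liver line thus stood far above both kidney lines.

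For NR1H4 the large step lay elsewhere. Its level was 41.9, 43.5 and 35.9 CPM (40.4 ± 4.002, SD, n = 3) in HepG2, 26.5, 23.9 and 26.4 CPM (25.6 ± 1.48) in RCC4 and 0.216, 0.148 and 0.396 CPM (0.253 ± 0.128) in HKC-8 cells. RCC4 cells held 99.3-fold more of the bile acid receptor than HKC-8 cells by the edgeR estimate. No test of this difference is given, since the HKC-8 samples, with 18, 12 and 36 counts, did not all reach the low-count filter. HepG2 cells held only 1.59-fold more than RCC4 cells (log2 difference 0.67 ± 0.13, edgeR adjusted p = 0.000356). The kidney cancer line was therefore closer to the liver line than to the tubule line in its NR1H4 transcript.

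PROX1 was at 126, 111 and 140 CPM (126 ± 14.1, SD, n = 3) in normoxic HepG2 cells, against 6, 6 and 5 counts in the RCC4 and 1, 1 and 2 counts in the HKC-8 samples. Every HepG2 sample lay far above every kidney sample, and no test is given, since PROX1 passed the low-count filter through HepG2 cells alone.

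Levels of different genes can be set side by side only per length of transcript. Per kilobase of the canonical transcript the order in normoxic HepG2 cells was HNF4A (49.0 CPM per kb), CEBPA (40.9), FOXA1 (29.7), FOXA3 (19.3), PROX1 (14.9), NR1H4 (14.8), FOXA2 (12.1), HNF4G (3.23) and ONECUT1 (0.332). The samples of PROX1 and NR1H4 overlapped, as did those of NR1H4 and FOXA2, and no other neighbours in this order did. In hypoxic HepG2 cells the order was HNF4A (52.3), CEBPA (33.5), FOXA2 (20.2), FOXA1 (20.0), FOXA3 (18.9), PROX1 (18.4), NR1H4 (8.96), HNF4G (3.46) and ONECUT1 (0.725). FOXA2, FOXA1, FOXA3 and PROX1 overlapped there, each with its neighbour, so FOXA2 had moved from below FOXA3 to the level of FOXA1.

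The change in hypoxia was tested within each line with edgeR. The labels do not say that replicates came from separate cultures, so the p-values measure the spread between these samples, which may be technical. In HepG2 cells all 9 factors were tested and 6 were called, 3 higher (FOXA2, ONECUT1 and PROX1) and 3 lower (FOXA1, CEBPA and NR1H4), where 39.1% of the 13623 genes tested were called, 19.9% higher and 19.2% lower. In HKC-8 cells 4 of the 9 passed the low-count filter and 1, CEBPA, was called, as a rise, against 20.4% of 13536 genes (11.2% higher). With the replicate number as a block, by which the HKC-8 samples were taken to pair, CEBPA remained the 1 factor called there. The count over all genes then rose from 2757 to 5755. In RCC4 cells 4 of the 9 were tested and 1, FOXA2, was called, as a fall, against 50.1% of 12811 genes (24.2% lower).

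**Figure D2:**
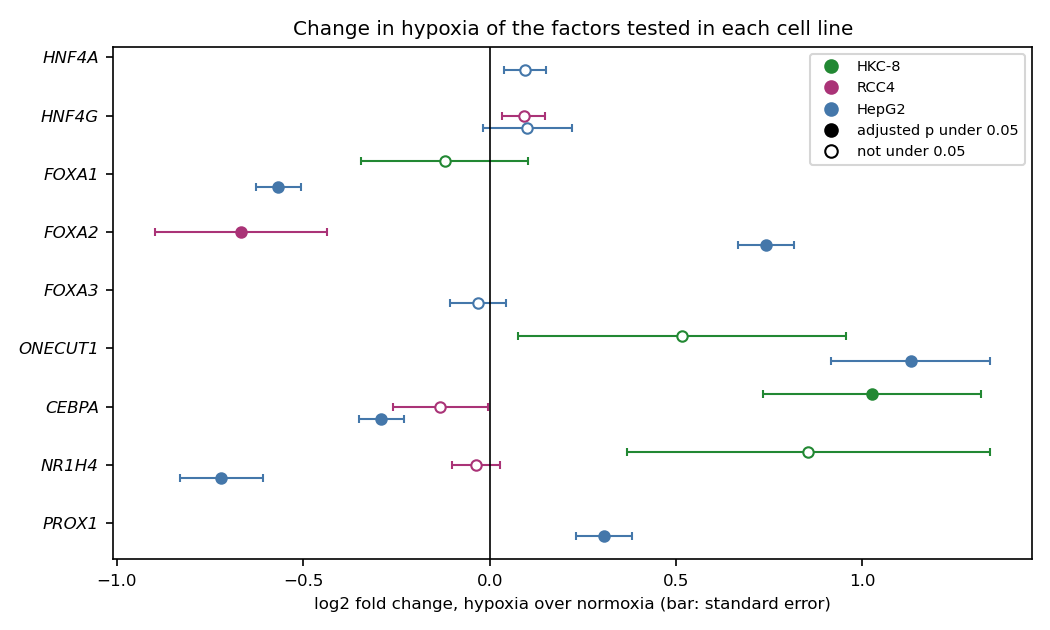
Log2 fold change of hypoxia over normoxia (x axis) of each factor (y axis) in the lines where it was tested, HKC-8 in green, RCC4 in purple and HepG2 in blue. Bars are standard errors, and filled points have an edgeR adjusted p under 0.05. FOXA2 lies at 0.74 in HepG2 and at -0.67 in RCC4 cells, and CEBPA at -0.29 in HepG2 and at 1.03 in HKC-8 cells.

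The HNF4 genes were not called where they could be tested, HNF4A in HepG2 cells and HNF4G in HepG2 and RCC4 cells. HNF4A in RCC4 cells and both genes in HKC-8 cells did not pass the low-count filter. HNF4A in hypoxic HepG2 cells was at 247, 239 and 243 CPM (243 ± 3.69, SD, n = 3), each above all normoxic samples but by little, with a log2 fold change of 0.09 ± 0.06 (SE, edgeR adjusted p = 0.197). HNF4G was at 14.5, 15.7 and 13.4 CPM (14.5 ± 1.19) in hypoxic HepG2 cells, within the spread of the normoxic samples (0.10 ± 0.12, adjusted p = 0.541). In hypoxic RCC4 cells HNF4G was at 28.3, 29.9 and 31.1 CPM (29.8 ± 1.40) and also overlapped the normoxic samples (0.09 ± 0.06, adjusted p = 0.195).

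In HepG2 cells FOXA1 fell and FOXA2 rose. FOXA1 in hypoxia was at 72.6, 71.5 and 67.0 CPM (70.3 ± 2.96, SD, n = 3), all below the normoxic samples, a 1.48-fold decrease (log2 fold change -0.57 ± 0.06, edgeR adjusted p = 8.17e-06). FOXA2 was at 51.3, 48.3 and 54.2 CPM (51.3 ± 2.96), all above the normoxic samples, a 1.67-fold increase (0.74 ± 0.08, edgeR adjusted p = 5.85e-06). FOXA3 was at 38.9, 34.7 and 35.2 CPM (36.3 ± 2.29) and overlapped its normoxic level (-0.03 ± 0.08, adjusted p = 0.774). Per kilobase of transcript, the sum of the 3 genes was 61.0 ± 3.58 CPM in normoxia and 59.1 ± 1.88 in hypoxia. The share of FOXA1 in that sum was 48.7% ± 0.923 in normoxia and 33.9% ± 1.49 in hypoxia, that of FOXA2 19.8% ± 0.456 and 34.2% ± 1.86, and that of FOXA3 31.6% ± 0.517 and 31.9% ± 1.04. FOXA transcripts were thus led by FOXA1 in normoxia and were near equal in hypoxia, a description of the shares without a test.

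**Figure D3:**
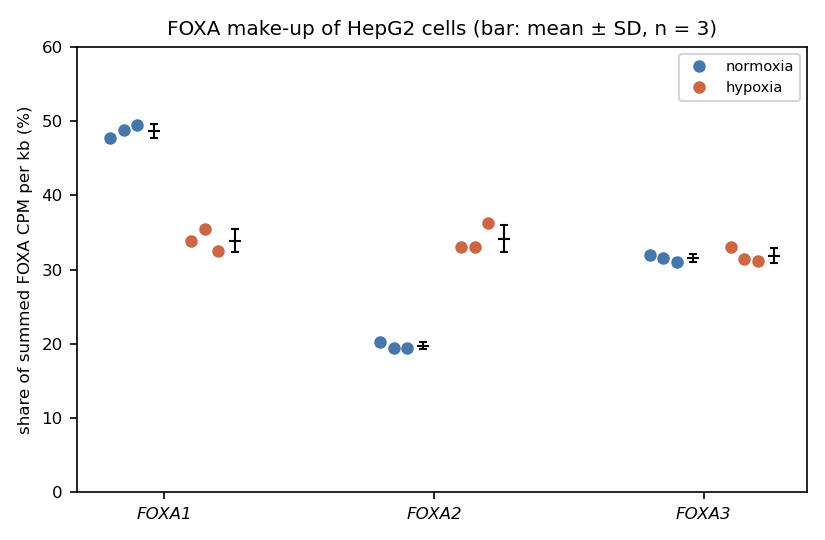
Share of each FOXA gene in the summed FOXA level per kilobase of transcript (y axis, percent) in the HepG2 samples, normoxic in blue and hypoxic in orange. Points are samples and bars are the mean ± SD of 3. The FOXA1 share was 48.7% in normoxia and 33.9% in hypoxia, the FOXA2 share 19.8% and 34.2%, and the FOXA3 points of the conditions overlap.

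FOXA2 moved the other way in RCC4 cells. Its hypoxic level there was 1.46, 1.12 and 0.952 CPM (1.18 ± 0.261, SD, n = 3), below all normoxic samples, from 71, 56 and 46 counts. The log2 fold change was -0.67 ± 0.23 (edgeR adjusted p = 0.0192). The call was lost without hypoxic replicate 2 (adjusted p = 0.0521), without hypoxic replicate 3 (0.0832) or without normoxic replicate 1 (0.0647). The responses of the 2 lines to hypoxia differed by 1.42 ± 0.18 on the log2 scale (HepG2 minus RCC4, edgeR adjusted p = 1.11e-05 for the interaction, where 22.6% of 14813 genes were called), and the labels give the lines unlike oxygen levels and durations. FOXA1 in hypoxic HKC-8 cells was at 1.98, 1.74 and 1.99 CPM (1.90 ± 0.141), within the range of the normoxic samples (-0.12 ± 0.22, adjusted p = 0.738). Its response differed from that in HepG2 cells by -0.44 ± 0.18 with an adjusted p of 0.158 (9.30% of 15046 genes were called), and with the replicate block by -0.46 with an adjusted p of 0.0247.

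LINC00261, a long noncoding RNA gene next to FOXA2 on the same strand of chromosome 20 with 2355 bases between them (GRCh37), rose with FOXA2 in HepG2 cells. It was at 72.5, 66.2 and 60.8 CPM in normoxia and at 119, 119 and 111 CPM in hypoxia, without overlap (log2 fold change 0.81 ± 0.07, edgeR adjusted p = 1.23e-06). The HKC-8 samples held no count of it, and the RCC4 samples 1 to 27 counts.

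ONECUT1 had the largest log2 fold change of the 9 factors in HepG2 cells. Its hypoxic level was 3.71, 3.45 and 2.30 CPM (3.16 ± 0.751, SD, n = 3), all above the normoxic samples, a 2.19-fold increase (log2 fold change 1.13 ± 0.21, edgeR adjusted p = 0.00102). In hypoxic HKC-8 cells it was at 0.276, 0.245 and 0.363 CPM (0.295 ± 0.0612), which overlapped the normoxic samples (0.52 ± 0.44, adjusted p = 0.440). The responses of these lines were not shown to differ (HepG2 minus HKC-8 0.62 ± 0.47, adjusted p = 0.458).

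CEBPA fell in HepG2 and rose in HKC-8 cells. In hypoxic HepG2 cells it was at 87.4, 87.2 and 86.7 CPM (87.1 ± 0.355, SD, n = 3), all below the normoxic samples, a 1.22-fold decrease (log2 fold change -0.29 ± 0.06, edgeR adjusted p = 0.00210). In HKC-8 cells the counts were 28, 37 and 51 in normoxia and 80, 76 and 81 in hypoxia, which gave 1.00, 0.777 and 0.981 CPM (0.920 ± 0.124) in hypoxia, above all normoxic samples. This was a 2.04-fold increase (1.03 ± 0.29, edgeR adjusted p = 0.0377), at a level around 1 CPM. The call was lost without hypoxic replicate 1 (adjusted p = 0.129), hypoxic replicate 3 (0.103), normoxic replicate 1 (0.142) or normoxic replicate 2 (0.102). In hypoxic RCC4 cells CEBPA was at 4.04, 4.32 and 3.79 CPM (4.05 ± 0.269) and overlapped the normoxic samples (-0.13 ± 0.13, adjusted p = 0.407). The response of HKC-8 cells differed from that of HepG2 cells (HepG2 minus HKC-8 -1.30 ± 0.19, edgeR adjusted p = 0.000482) and from that of RCC4 cells (RCC4 minus HKC-8 -1.17 ± 0.27, edgeR adjusted p = 0.0111, where 15.2% of 14203 genes were called).

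NR1H4 fell in HepG2 cells, from the level given above to 25.9, 27.6 and 20.1 CPM (24.5 ± 3.91, SD, n = 3), all below the normoxic samples. The decrease was 1.65-fold (log2 fold change -0.72 ± 0.11, edgeR adjusted p = 0.000208). In hypoxic RCC4 cells it was at 25.6, 23.0 and 25.9 CPM (24.8 ± 1.59), over the same range as in normoxia (-0.04 ± 0.06, adjusted p = 0.662). The higher level of HepG2 cells in normoxia was no longer seen in hypoxia, where the samples of the lines overlapped, although the levels in hypoxia were not tested between lines. The responses of HepG2 and RCC4 cells differed by -0.67 ± 0.14 (edgeR adjusted p = 0.00171).

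In HKC-8 cells NR1H4 was at 0.376, 0.286 and 0.727 CPM in hypoxia (0.463 ± 0.233, SD, n = 3), and the conditions overlapped (0.85 ± 0.49, adjusted p = 0.242). Replicate 3 was the highest sample in both conditions, and each hypoxic sample was above the normoxic sample of its number. With the replicate block the change was 0.87 ± 0.34 with an adjusted p of 0.0637. The response differed from that of HepG2 cells by -1.54 ± 0.42 (edgeR adjusted p = 0.0319), a call that was lost in 7 of the 12 fits that left out 1 sample (adjusted p = 0.0566 to 0.111) and held with the replicate block (adjusted p = 0.000109). The difference between RCC4 and HKC-8 cells was -0.88 ± 0.41 with an adjusted p of 0.168, and with the block -0.93 with an adjusted p of 0.00364.

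PROX1 rose in HepG2 cells to 148, 162 and 157 CPM (156 ± 7.22, SD, n = 3), all above the normoxic samples. The increase was 1.24-fold (log2 fold change 0.31 ± 0.07, edgeR adjusted p = 0.00545). In 1 fit of all 18 samples it was not called (adjusted p = 0.0557). The hypoxic HKC-8 samples held 2, 7 and 0 counts of PROX1 and the hypoxic RCC4 samples 11, 1 and 3, and it did not pass the low-count filter in either line. Differences in response between lines are given here only for factors with more than 3 counts in every sample of both lines.

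HIF binds the core sequences ACGTG and GCGTG, and the 250 bases before the RefSeq start of the factors were searched for both on either strand. RefSeq windows (GRCh38.p14) were at hand for 6 of the 9 factors, 7 windows in all, and 2 of the 7 held a core, those of FOXA3 and ONECUT1. Of 35116 promoter windows of the same length, 18.5% held ACGTG, 32.2% held GCGTG and 43.2% held either. The windows of ONECUT1, which rose in HepG2 cells, and of CEBPA and NR1H4, which fell, are shown 5′ to 3′ in the direction of the gene, with each core in capitals. ONECUT1 is on the minus strand at chr15:53082534-53082783 (GRCh37) and holds CACGTG, which reads ACGTG on both strands, and GCGTG. CEBPA is on the minus strand at chr19:33793441-33793690 and NR1H4 on the plus strand at chr12:100896888-100897137, and neither holds a core. In the GENCODE annotation the ONECUT1 and NR1H4 windows lie inside the span of the gene but outside its exons, while the windows of FOXA1 and FOXA3, not shown, overlap an exon. Of the windows not shown, that of FOXA3, which was not called in HepG2 cells, holds GCGTG. Those of HNF4A, not called, and of FOXA1, which fell, hold no core. A relation of core and response was not tested. A match of these letters is a description of the window and not a binding site.
ONECUT1: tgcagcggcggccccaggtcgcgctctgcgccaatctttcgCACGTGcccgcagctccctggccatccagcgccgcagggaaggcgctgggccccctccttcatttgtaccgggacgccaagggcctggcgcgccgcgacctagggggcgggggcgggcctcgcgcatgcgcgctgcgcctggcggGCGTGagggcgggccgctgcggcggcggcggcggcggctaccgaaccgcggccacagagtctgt
CEBPA: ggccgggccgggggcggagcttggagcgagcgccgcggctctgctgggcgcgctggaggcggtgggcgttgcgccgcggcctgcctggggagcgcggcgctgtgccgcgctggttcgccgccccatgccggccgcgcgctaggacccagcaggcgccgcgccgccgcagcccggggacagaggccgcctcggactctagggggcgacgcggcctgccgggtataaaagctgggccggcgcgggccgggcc
NR1H4: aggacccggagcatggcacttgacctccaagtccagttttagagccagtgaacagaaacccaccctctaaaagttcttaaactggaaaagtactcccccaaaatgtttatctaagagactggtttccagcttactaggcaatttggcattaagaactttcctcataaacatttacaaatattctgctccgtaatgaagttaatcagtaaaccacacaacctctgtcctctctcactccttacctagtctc

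The composition of these windows differed, with 81.2% G and C in CEBPA, 76.8% in ONECUT1 and 42% in NR1H4. In GRCh37, HNF4A lies on the plus strand of chromosome 20 (42984339 to 43061485) and FOXA2 on the minus strand of the same chromosome (22561636 to 22566093). CEBPA (33790840 to 33793440, minus) and FOXA3 (46367247 to 46377055, plus) share chromosome 19. HNF4G is on chromosome 8 (76320149 to 76479069, plus), FOXA1 on 14 (38058757 to 38065264, minus), ONECUT1 on 15 (53047250 to 53083275, minus), NR1H4 on 12 (100867486 to 100958192, plus) and PROX1 on 1 (214156524 to 214214853, plus). CEBPA has a single exon, while NR1H4 has 11 and HNF4A and HNF4G have 10 each. Genes on the opposite strand are annotated over parts of HNF4A, FOXA1, CEBPA, NR1H4 and PROX1. Whether the counting used strand is not given in the sources used here, and without strand their reads and those of the factor cannot be told apart.

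Relatives of the factors and other liver factors moved in both directions in HepG2 cells. Of 7 tested relatives, 1 rose and 3 fell, against 19.9% and 19.2% of all genes, with a median log2 fold change of -0.22 against -0.00 over all genes. CEBPD, a stress-responsive C/EBP, rose from 5.58 ± 0.918 to 12.2 ± 0.609 CPM (1.12 ± 0.12, edgeR adjusted p = 1.03e-05), and ONECUT2, CEBPG and NR1H3 fell. Of 24 other liver factors, 5 rose and 6 fell, with a median of -0.02. KLF15, a factor of amino acid and glucose metabolism, fell 3.57-fold from 6.74 ± 1.30 to 1.88 ± 0.431 CPM (edgeR adjusted p = 7.62e-06).

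In the kidney lines 3 of 7 tested relatives rose in HKC-8 cells (11.2% of all genes rose) and 3 of 6 fell in RCC4 cells (24.2% of all genes fell). CEBPB was in both groups, higher in hypoxia in HKC-8 cells (0.52 ± 0.11, edgeR adjusted p = 0.0107) and lower in RCC4 cells (-0.76 ± 0.07, edgeR adjusted p = 1.28e-08). It was singled out after its values were seen. Of the other liver factors 5 of 14 rose and 0 fell in HKC-8 cells, and 5 of 16 rose and 5 fell in RCC4 cells, where 50.1% of all genes were called. NFIL3, a bZIP repressor of the circadian system, was called in all 3 lines, as a rise. Its log2 fold changes were 0.46 ± 0.07 in HepG2 cells, 1.13 ± 0.13 in the tubule line and 0.71 ± 0.05 in the kidney cancer line. In RCC4 cells NR5A2, a nuclear receptor of bile acid metabolism, rose 3.59-fold to 1.39 ± 0.155 CPM (edgeR adjusted p = 7.10e-05). NR2F1 fell there from 0.308 ± 0.139 to 0.0892 ± 0.0860 CPM (edgeR adjusted p = 0.0330). Its counts were 11, 12 and 20 in normoxia and 9, 1 and 3 in hypoxia. It passed the low-count filter through the normoxic samples alone, so the call carries little.

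Known targets of the factors were described by list. Of 17 tested HNF4A targets in HepG2 cells 12 rose and 2 fell, with a median log2 fold change of 0.46, beside 19.9% of all genes that rose and 19.2% that fell. They include the apolipoprotein genes APOA4, which rose from 1.55 ± 0.378 to 6.74 ± 1.07 CPM, and APOC3, which rose from 29.9 ± 6.004 to 71.6 ± 5.13 CPM, and G6PC, the last enzyme of gluconeogenesis, which rose 2.35-fold. HNF4A itself was not called, as given above.

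Of 14 tested FXR targets in HepG2 cells 3 rose and 6 fell, with a median of -0.15, read against the same 19.9% and 19.2%. FGG, which encodes the fibrinogen gamma chain, fell from 871 ± 136 to 431 ± 81.3 CPM (log2 fold change -1.02 ± 0.13, edgeR adjusted p = 4.05e-05), and FGA and FGB fell as well. The basolateral bile acid transporter has a pair of subunits, and these went apart. SLC51A rose 13.1-fold from 0.588 ± 0.0793 to 7.75 ± 0.762 CPM (edgeR adjusted p = 2.31e-09), while SLC51B fell (-0.36 ± 0.10, edgeR adjusted p = 0.00907). In RCC4 cells SLC51B fell 4.30-fold to 0.272 ± 0.147 CPM (edgeR adjusted p = 0.000135). Its counts were 53, 44 and 71 in normoxia and 5, 17 and 18 in hypoxia. Only the normoxic samples all reached the low-count filter, so the call carries little. In RCC4 cells 2 of 4 tested FXR targets fell, SLC51B among them, beside 24.2% of all genes.

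Of 15 tested CEBPA and FOXA targets in HepG2 cells 4 rose and 3 fell, with a median of 0.05, again beside 19.9% and 19.2% of all genes. ARG1, the arginase of the urea cycle, rose 14.1-fold from 0.197 ± 0.0912 to 2.82 ± 1.15 CPM (edgeR adjusted p = 8.56e-06). Its counts were 12, 10 and 4 in normoxia and 161, 141 and 61 in hypoxia. Only the hypoxic samples all reached the low-count filter, so the call carries little. IGFBP1, a binding protein of insulin-like growth factors, rose 8.84-fold to 802 ± 58.8 CPM (edgeR adjusted p = 5.79e-11). The lists share members, since FGA, SERPINA1, TTR, CYP8B1 and APOC2 each stand in more than 1, and their genes were not tested as sets. In HKC-8 cells 1, 2 and 3 genes of the HNF4A, FXR and CEBPA and FOXA lists were tested and 0 were called, beside 20.4% of all genes. In RCC4 cells F2 was called, as a rise, of 2 tested HNF4A targets and 0 of 2 CEBPA and FOXA targets. There 50.1% of all genes were called.

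The genes whose level was most like that of each factor over the 18 samples were taken by Pearson's r of log2(CPM + 1) among 15307 genes. HNF4A was followed most closely by PHYHIPL, IGDCC3 and DLK1, FOXA3 by VSNL1, PGC and NR5A1, and PROX1 by PPP1R10, A1CF and TRIM71. HNF4G was followed by CHST9, LPHN2 and TMED4, and NR1H4 by PON2, TMEM230 and CRYL1, with r from 0.994 to 0.997. For FOXA1 they were PSMB8, CORO2A and CCDC69, for FOXA2 AXIN2, SERPINA1 and GLT25D2, and for CEBPA ST6GAL1, C5 and ABCC6. ONECUT1 had the lowest values, from 0.987 to 0.989 with ZMYND15, SYT7 and NOTCH3. The points are 3 lines with 6 samples each, so r mainly restates the difference between lines.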

How the data were processed

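RNA-seq of 18 samples (3 lines, 2 conditions, 3 replicates) was analysed from the deposited read counts per gene, whole numbers without normalization. By their methods the authors trimmed adapters, aligned reads to GRCh37 with Tophat 2.0.8b and bowtie 1.0.0, removed fragments without a unique position with SAMtools 0.1.19 and counted reads on UCSC genes with HTSeq 0.5.4p3 in its strict intersection mode, which lowers the counts of genes with near copies or overlaps. The strand setting is not given in the sources used here. HKC-8 samples were split over 2 lanes.

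Groups came from the labels. Counts were filtered by filterByExpr, scaled by TMM and tested with the quasi-likelihood test of edgeR 4.0.16 (R 4.3.3), with Benjamini-Hochberg adjustment over all genes tested and a threshold of 0.05. Each line was fitted apart, normoxic samples were compared between lines in 1 fit, and interactions used 12 samples. A standard error is the log2 fold change divided by the square root of F. CPM are TMM-scaled over all 18 samples, and the floor is 3 counts over a group (0.0115 to 0.0209 CPM in the kidney lines). Steps were tested on simulated data.

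Some genes of the lists are not reported here by name. The factors and lists were chosen with earlier results of these data known. All 9 factors are named, and of each list, at most 6 genes per line with an adjusted p under 0.05, a log2 change of 1 or more in size and no overlap between conditions. Other list genes are given as counts, and those named outside this rule, such as CEBPB and SLC51B in HepG2 cells, were chosen after their values were seen.

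Same-numbered HKC-8 samples deviated together (r of their deviations from the group means 0.109, 0.453 and 0.447), so numbers from the labels were taken to pair them, although replicate 1 was as close to another number (0.116). The alternatives were DESeq2 1.42.0, median-of-ratios size factors, total counts, no filter, at least 10 counts in every sample, the replicate number as a block, 1 fit of 18 samples, and each sample left out in turn.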

Additional observations from a re-analysis of the deposited data

Results flagged for a closer look

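The response to hypoxia differed between lines, by the interaction test of edgeR, for 3 factors, in 5 pairs of factor and contrast. Only factors with more than 3 counts in every sample of both lines were considered. Of all genes tested, 9.30% were called between HepG2 and HKC-8 cells, 22.6% between HepG2 and RCC4 cells and 15.2% between RCC4 and HKC-8 cells. CEBPA differed by -1.30 on the log2 scale between HepG2 and HKC-8 cells and by -1.17 between RCC4 and HKC-8 cells, the HKC-8 samples rising by 1.03. NR1H4 differed by -1.54 between HepG2 and HKC-8 cells and by -0.67 between HepG2 and RCC4 cells. FOXA2 differed by 1.42 between HepG2 and RCC4 cells, with a rise of 0.74 in the former and a value of -0.67 in the latter. In the contrasts with RCC4 cells the lines also differ in labelled oxygen level and duration, so these cannot be told apart from the line. Hypoxic HKC-8 samples are titled with 0.1% oxygen and hypoxic HepG2 samples with 0.5%, so the same holds for the contrast of these lines if the titles are right. HKC-8 counts of CEBPA were 28 to 81 per sample and those of NR1H4 12 to 60.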

How the results depend on the processing

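In HepG2 cells 6 factors were called in each alternative except 1 fit of all 18 samples, where PROX1 was not (adjusted p = 0.0557). In HKC-8 cells the count over all genes was 5013 in 1 fit of all 18 samples and 1013 to 3283 with a sample left out, which left 0 to 1 factor called. In RCC4 cells it was 3286 in 1 fit of all 18 samples and 5594 to 5952 with a sample left out, again with 0 to 1 factor called. With at least 10 counts in every sample, 2 factors (of 9, 9 and 6 with more than 3 counts in every sample of a line) could be called in each normoxic contrast, since fewer could be tested.

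With the replicate number as a block, the HKC-8 count was 5755, and the interactions with HKC-8 called 3019 genes (HepG2) and 4071 genes (RCC4), with 2 factors in the latter, as with DESeq2. With a sample left out, the interaction of HepG2 and HKC-8 cells called 911 to 1890 genes and 1 to 3 factors, and that of RCC4 and HKC-8 cells 1 to 2 factors. The numbers were not shown to pair HepG2 samples (r 0.0617 to 0.184, each highest with its own number) or RCC4 samples (r -0.0103 to 0.0333), and the block left 6 and 1 factors called there. Of the factors with more than 3 counts in every sample of a line compared, the block changed no call other than those given with it above.

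Changes of sign were limited to factors without a call. With a sample left out, FOXA1 in HKC-8 cells ranged from -0.298 to 0.0642, NR1H4 in RCC4 cells from -0.0883 to 0.0157, and in HepG2 cells HNF4G from -0.0220 to 0.215 and FOXA3 from -0.0852 to 0.0231. The HNF4G interaction of HepG2 and RCC4 cells ranged from -0.11 to 0.13. The causes were not tested. In the kidney lines, factors with a few counts per sample limit what can be seen, and their absence is known only down to the floor.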
